A study of Rattus norvegicus with 6 samples.

Results

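Axon guidance genes encode the secreted and membrane-bound cues that steer growing nerve fibres, and the receptors that read them. All genes of the deposited mRNA table whose symbol falls in the semaphorin, plexin, neuropilin, netrin, DCC, neogenin, UNC5, Slit, Robo, ephrin or Eph families were taken, by name alone. They numbered 67 of 16551 genes, 35 of them ligands and 32 receptors. A second deposited table, of long non-coding RNAs, held 0 rows with such a name. The genes were described in cells cultured from dorsal root ganglia of rats, which hold the cell bodies of sensory neurons wrapped in glia, taken from lumbar vertebra L5 down to sacral vertebra S3. The high-glucose group (titled DM1, DM2 and DM3) consisted of 3 samples grown in high-glucose medium (45 mmol/L). The control group consisted of 3 samples (control1, control2 and control3) from the normal culture, taken to be in plain DMEM medium. The culture time listed for both groups was 48 h. The labels do not state in words that DM is the high-glucose group, nor do they give the glucose level of the control medium, the strain, sex or age of the rats, or whether the 3 samples of a group came from separate cultures. The p-values thus rest on the spread among 3 samples a group, which may be technical only, and no osmolarity control was among the samples.

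The families work as ligand and receptor systems. Class 3 semaphorins are secreted and bind a neuropilin, which carries no strong signal of its own, together with a class A plexin, which relays it and makes the growth cone turn away or collapse. Netrins attract through DCC and neogenin and repel through UNC5 receptors, and Slits repel through Robo receptors. Ephrins stay attached to the membrane, the A ephrins by a lipid anchor and the B ephrins by a transmembrane stretch, and signal to Eph receptor tyrosine kinases on the neighbouring cell while also carrying a signal backwards. In peripheral nerves these genes are also used by Schwann cells, fibroblasts and vessels, for instance when cells sort themselves at an injury.

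In the high-glucose samples 23 of the 67 genes were higher and 25 were lower, and 19 did not reach an adjusted p below 0.05 in limma. Such calls were common in this comparison: 50.5% of all genes passed, 24.9% higher and 25.5% lower, against 71.6% of the guidance genes. Among genes that averaged at least 0 on the log2 scale, 44 of 55 guidance genes were called, against 61.7% of all genes. The median guidance gene changed by 0.47 in absolute log2 fold change, where the median of all genes was 0.28. At least 2-fold changes were called in 14 guidance genes, which is 20.9% of them against 8.25% of all genes. Of these 7 were higher (4.75% of all genes were) and 7 lower (3.5% of all genes). Of the 55 guidance genes averaging at least 0, 18.2% were called at 2-fold or more, against 5.44% of all such genes. The median signed log2 fold change was 0.02, and that of all genes 0.01. Of the ligands 12 were higher and 14 lower, and of the receptors 11 were higher and 11 lower. The high-glucose values lay entirely above or below the control values in 53 of the 67 genes, or 79.1%, against 57.6% of all genes. Each log2 fold change given here is high glucose minus control with its standard error (SE), n = 3 samples per group, and levels are reads per 1000000 scaled reads (RPM), which are not corrected for transcript length and so are compared between groups and not between genes.

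**Figure D1:**
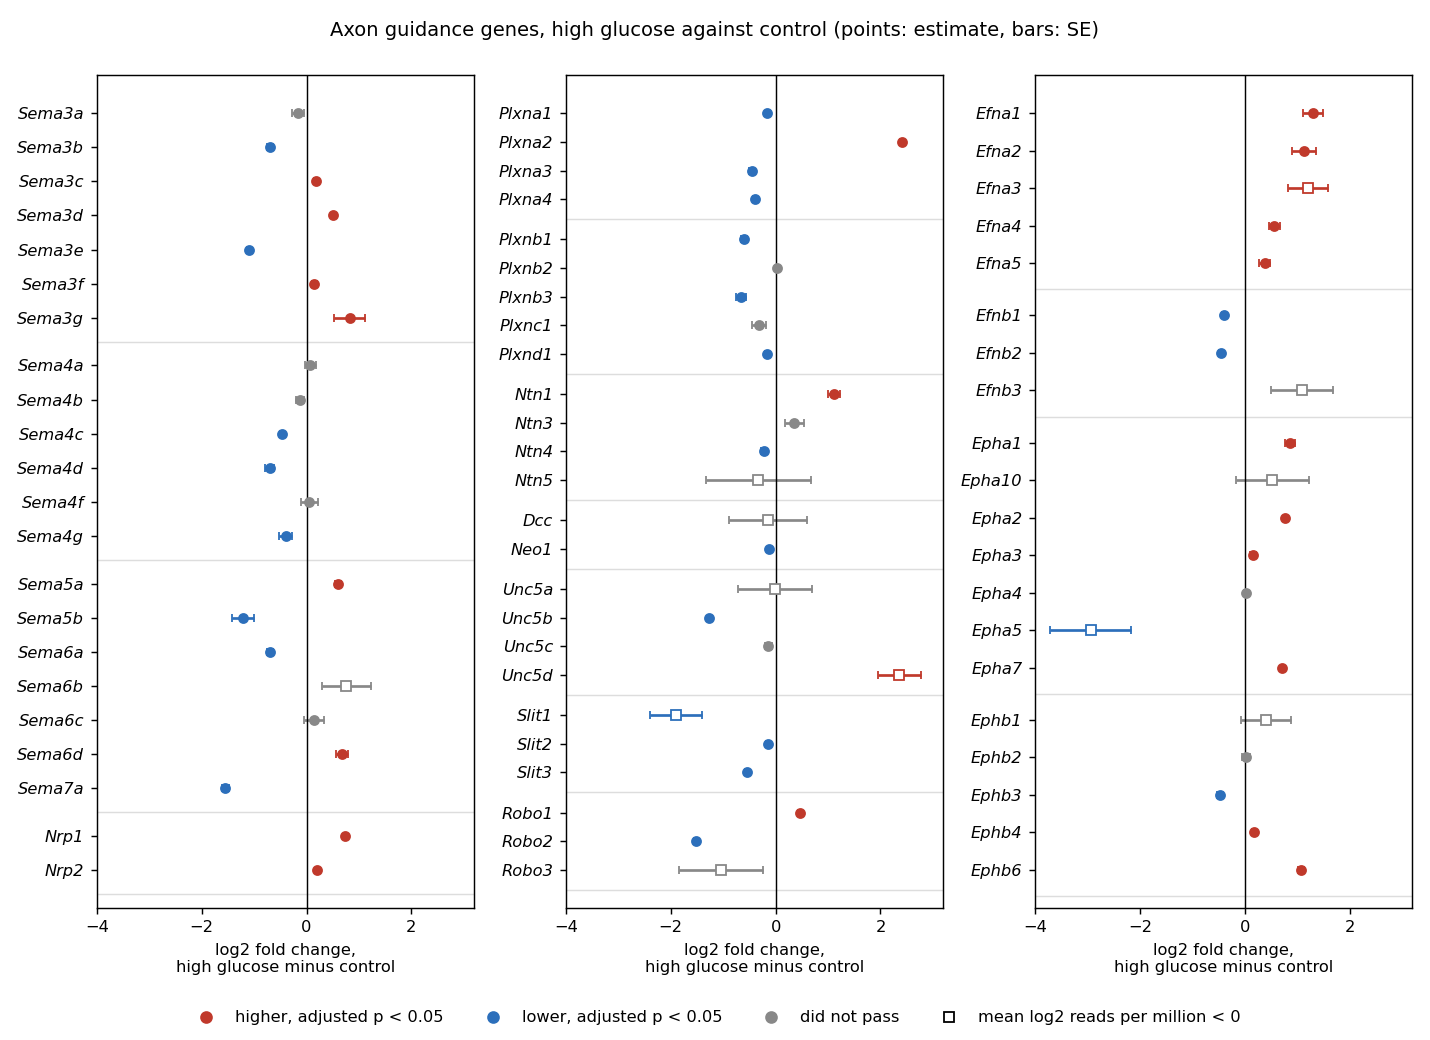
Log2 fold change (high glucose minus control, with SE) of each of the 67 guidance genes, grouped by family, with genes that passed the test in red where higher and blue where lower, and grey where they did not pass. All 5 A ephrins lie to the right of 0 and all 3 Slits to the left, while plexins, UNC5 and Robo receptors split within the family.

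The libraries held between 28780612 and 33108451 reads in the mRNA table. The labels call the cells nerve cells, and the 20 pan-neuronal markers were read unevenly. Of these, 10 averaged at least 0 on the log2 RPM scale, among them Thy1 (8.46), Map2 (6.45), Uchl1 (5.73), Tubb3 (3.84), Syt1 (3.365) and Syn1 (2.76), while Snap25, Elavl3, Elavl4, Rbfox3, Isl1 and Pou4f1 each had 0 reads in at least 1 sample. Their summed level was 505.6 to 510.4 RPM in high glucose and 579.7 to 591.8 in control, the largest part from Thy1, which fibroblasts express too. Of these markers 11 were lower and 1 was higher. At least 2-fold falls were called in 8 of the 20, and rises of that size in 0. Among 14 markers of Schwann and satellite glia, 13 were lower and 0 higher, with sums of 388.3 to 423.3 in high glucose against 605.6 to 632.9 in control. Mural markers summed to 8447 to 8525 in high glucose against 15020.0 to 15170.0 in control, with 7 of 12 lower and 3 higher. Markers of fibroblasts summed to 52350.0 to 54920.0 in high glucose against 56940.0 to 59070.0 in control, with 6 of 11 higher and 4 lower. Most of that sum came from the collagens Col1a1 (log2 fold change -0.41) and Col3a1 (0.28), and the median change of the 11 was 0.28. Endothelial markers summed to 176.3 to 180.3 in high glucose against 166.5 to 175.5 in control, with 2 of 11 higher and 1 lower. Macrophage markers summed to 28.26 to 29.37 in high glucose against 22.36 to 23.37 in control, so that their sum was higher although 3 of 10 were lower and 2 higher. Beside these marker counts, 24.9% of all genes were called higher and 25.5% lower. The median log2 fold change was -1.50 for pan-neuronal, -0.70 for glial, -0.73 for mural, -0.10 for endothelial and -0.10 for macrophage markers. The part of the marker shifts in the guidance results was not tested, and fewer cells of a type cannot be told apart from less RNA per cell.

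Of the 7 class 3 semaphorins, 4 were higher and 2 lower in high glucose, or 85.7% called against 50.5% of all genes. Sema3e (ENSRNOG00000006631), which repels nerve fibres and vessels through plexin D1, fell 2.14-fold. Its level was 53.0, 49.1 and 54.8 RPM in the high-glucose samples, against 113, 113 and 110.0 in the control samples (log2 fold change -1.10 ± 0.039, adjusted p = 5.05e-11). No high-glucose sample reached even the lowest control sample. Sema3b, first known as a tumour suppressor of the lung, fell as well (-0.70 ± 0.049, adjusted p = 5.46e-08). Sema3d rose 1.42-fold (0.505 ± 0.027) and Sema3c, the member with the most reads, rose slightly: it had 332.1, 325.1 and 324.2 RPM in high glucose and 291.6, 288.4 and 291.2 in control (0.17 ± 0.020, adjusted p = 8.15e-06). Small as that rise of Sema3c was, the groups did not overlap. Sema3f, the main partner of neuropilin 2, rose by 0.15 ± 0.044 (adjusted p = 0.0111), but its adjusted p was 0.0686 with a single variance prior and 0.0546 without the third high-glucose sample. The least read member of the class that rose was Sema3g (0.83 ± 0.293, adjusted p = 0.0315), on 146 reads in high glucose and 79 in control. Its adjusted p was 0.0703 after quantile normalization, 0.105 with a single variance prior, and 0.14, 0.0558 and 0.122 without the first or the third high-glucose sample or the first control sample. Sema3a, the classic collapsing cue of sensory growth cones, stood at -0.16 ± 0.118 and did not pass (adjusted p = 0.294). The class as a whole summed to 627.4 ± 6.67 RPM in high glucose and 613.5 ± 0.65 in control (SD, n = 3 each). Within that sum the share of Sema3e was 8.33% ± 0.38 in high glucose and 18.2% ± 0.26 in control, while Sema3d made up 26.6% ± 0.40 in high glucose and 19.2% ± 0.54 in control.

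Membrane-bound semaphorins of class 4, which signal mainly through B plexins, gave 3 falls and 0 rises among 6 genes. That is 50% called, close to the 50.5% of all genes. All 6 averaged at least 0 on the log2 scale, where 61.7% of all genes were called. Sema4c, its most read member, had 56.7, 57.8 and 58.6 RPM in high glucose against 80.2, 77.7 and 81.5 in control (-0.47 ± 0.032, adjusted p = 3.93e-08). Sema4d, a ligand of plexin B1, fell 1.63-fold (-0.71 ± 0.093). Sema4g fell by 0.40 on the log2 scale (SE 0.118, adjusted p = 0.0125). That call of Sema4g lay just above the threshold, at an adjusted p of 0.0552 to 0.0596, with a single variance prior, with libraries scaled to plain read totals, and without the second sample of either group. Sema4a, Sema4b and Sema4f had values of 0.07, -0.12 and 0.05 that did not pass, and the sign of Sema4f turned to -0.06 after quantile normalization.

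The semaphorins of classes 5 to 7 moved in both directions. Sema7a (ENSRNOG00000007687), a lipid-anchored member that promotes outgrowth through integrins and also binds plexin C1, had 7.01, 6.97 and 7.11 RPM in high glucose against 20.0, 20.9 and 20.8 in control. It fell 2.92-fold (-1.55 ± 0.064, adjusted p = 2.27e-10), with the high-glucose samples close together at about the same low level. Sema5b was scarcer, at 1.05, 1.10 and 0.894 RPM in high glucose and 2.79, 2.38 and 1.91 in control, and fell 2.31-fold (-1.21 ± 0.209, adjusted p = 0.000282). Its relative Sema5a, whose extracellular part carries the same thrombospondin repeats, went the other way. Sema5a stood at 26.8, 24.7 and 26.1 RPM in high glucose and at 16.2, 17.9 and 17.1 in control (0.60 ± 0.056, adjusted p = 9.99e-07). The class 6 members, ligands of plexins A2 and A4 and of plexin A1, also split. Sema6a fell 1.62-fold (-0.69 ± 0.053) and Sema6d rose 1.61-fold (0.68 ± 0.116), whereas Sema6b (0.76 ± 0.460) and Sema6c (0.14 ± 0.184) did not pass. With a single variance prior Sema6b did pass (adjusted p = 0.0217).

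Among the receptors of this system the largest fitted rise was that of Plxna2 (ENSRNOG00000007324), the plexin that reads class 3 semaphorins with a neuropilin and class 6 semaphorins without one. It had 333.9, 327.9 and 332.6 RPM in the high-glucose samples, against 63.9, 61.2 and 62.5 in the control samples. The 2 groups were far apart and the samples of each lay close together. Plxna2 was 5.30-fold higher (2.41 ± 0.025, adjusted p = 6.3e-16), the largest fitted rise among the 67 genes, on 31635 reads in high glucose and 5511 in control. The other class A plexins all fell. Plxna1, with 218.7, 217 and 225.2 RPM in high glucose and 246.7, 248.5 and 240.7 in control, fell by little (-0.155 ± 0.023), and the call was lost when libraries were scaled to plain read totals (adjusted p = 0.126). Plxna3 (-0.45 ± 0.046) and Plxna4 (-0.385 ± 0.038) fell 1.37-fold and 1.31-fold. Plxna2 took 55.0% ± 0.36 of the class A plexin reads in high glucose and 16.6% ± 0.35 in control, and Plxna1 took 36.5% ± 0.40 in high glucose and 65.2% ± 0.58 in control (SD, n = 3 each). The summed level of class A plexins was 602.9 ± 6.01 RPM in high glucose and 375.9 ± 4.46 in control.

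**Figure D2:**
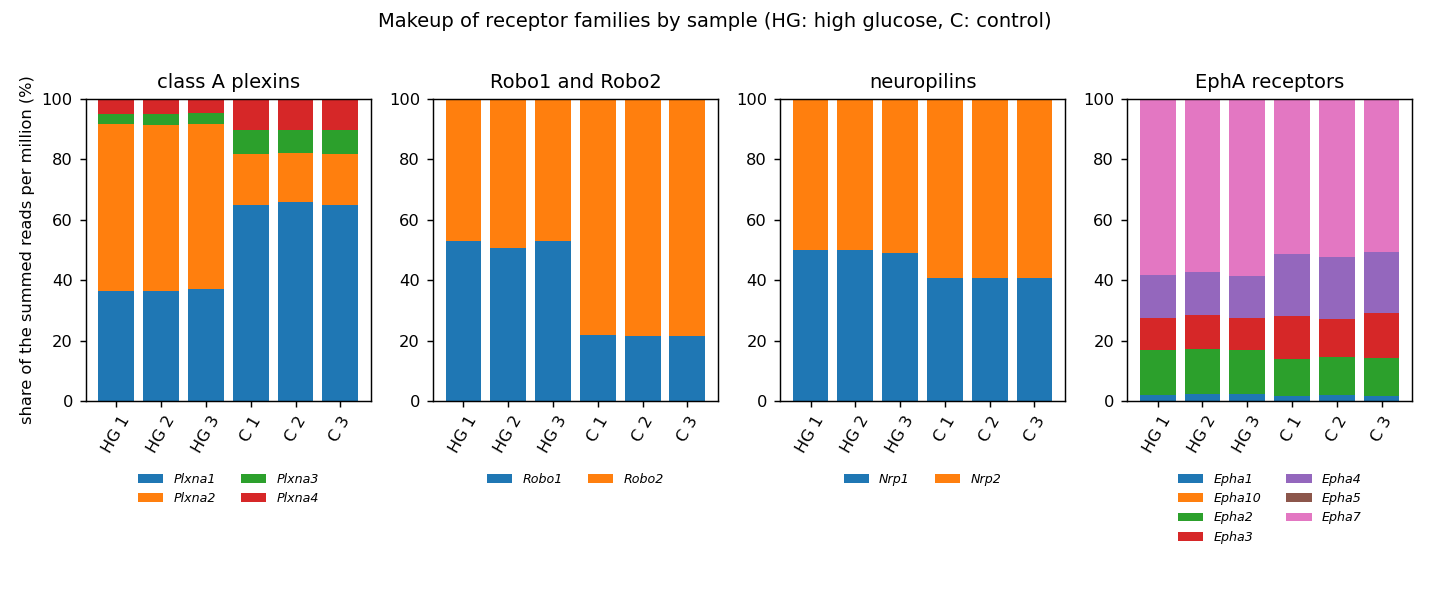
Share of each gene in the summed RPM of its receptor family (vertical axis, percent), in the 3 high-glucose samples (HG) left of the 3 control samples (C). Plxna2 made up 54.6% to 55.4% of class A plexin reads in high glucose and 16.2% to 16.8% in control, and Robo2 made up 46.9% to 49.2% of Robo1 and Robo2 reads in high glucose and 78.2% to 78.5% in control.

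No plexin of classes B to D rose, apart from Plxnb2 after quantile normalization and with plain read totals. Plxnb1 and Plxnb3, receptors of class 4 semaphorins, fell 1.52-fold and 1.58-fold (-0.60 ± 0.055 and -0.66 ± 0.091). Plxnb2 had the most reads of these, 583.2, 578.8 and 584 RPM in high glucose and 577.4, 563.4 and 562.5 in control. The 3 high-glucose values of Plxnb2 were the higher ones, yet the difference did not pass (0.04 ± 0.018, adjusted p = 0.121). Plxnb2 did pass as higher after quantile normalization (0.18, adjusted p = 5.58e-06) and with plain read totals (0.15, adjusted p = 6.72e-06). Plxnd1, the receptor of Sema3e, fell by 0.16 on the log2 scale (SE 0.035, adjusted p = 0.00172), though not with plain read totals (adjusted p = 0.253). Plxnc1, the receptor of Sema7a, had a value of -0.31 ± 0.137 that missed the threshold (adjusted p = 0.0733), and passed as lower after quantile normalization (0.0159) and with a single variance prior (0.017).

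Both neuropilins rose. Nrp1 (ENSRNOG00000010744), the binding receptor of Sema3a and also a co-receptor of vascular endothelial growth factor, had 413, 412.8 and 412.4 RPM in high glucose against 248.4, 247 and 247.7 in control. That is a 1.67-fold rise (0.74 ± 0.019, adjusted p = 2.14e-12) with almost no spread within a group. Nrp2 had 413.6, 412 and 428.3 RPM in high glucose and 362.9, 362 and 360.6 in control (0.21 ± 0.021, adjusted p = 1.73e-06). The share of Nrp1 in their sum was 49.7% ± 0.55 in high glucose and 40.6% ± 0.08 in control.

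In the netrin system Ntn1 rose and the receptor Unc5b fell. Ntn1 (ENSRNOG00000003947), the founding attractant of the family, had 5.92, 7.01 and 6.76 RPM in high glucose, against 2.97, 2.96 and 3.16 in control. It was 2.16-fold higher (1.11 ± 0.115, adjusted p = 2.67e-06), and the lowest high-glucose sample stood well above the highest control sample. Ntn4, a basement membrane netrin and the most read of the 4, stood at 22.3, 22.8 and 23.4 RPM in high glucose and 25.8, 27.5 and 26.8 in control. This small fall of Ntn4 (-0.23 ± 0.047, adjusted p = 0.00122) was lost with plain read totals (adjusted p = 0.0595). Ntn3 (0.35 ± 0.179, adjusted p = 0.118) did not pass, except with plain read totals (0.0423), and Ntn5 was counted at 4 reads in high glucose and 6 in control.

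Unc5b (ENSRNOG00000000567), a netrin receptor of neurons and of vessel tips, had 111, 112.1 and 114.5 RPM in the high-glucose samples, against 272.6, 268.6 and 269.8 in the control samples. The groups were separated by more than their whole spread, a fall of 2.40-fold (-1.265 ± 0.023, adjusted p = 9.77e-14). Unc5c did not pass (-0.14 ± 0.058, adjusted p = 0.0676), though it did without the third high-glucose sample (0.0281). Unc5d went the other way on few reads: 17, 25 and 23 reads in high glucose against 2, 5 and 4 in control. Per scaled read this is 5.46 times as many (exact 95% interval for counting error 2.86 to 11.5). The log2 fold change of Unc5d in the fit was 2.36 ± 0.409 (adjusted p = 0.000289). Unc5a was counted at 9 reads in high glucose and 8 in control and did not pass. Dcc, the attractive netrin receptor of commissural and many sensory fibres, was nearly absent from these libraries, with 1, 5 and 1 reads in high glucose and 3, 2 and 1 in control. Neogenin, encoded by Neo1 and a receptor of netrins and of repulsive guidance molecules, was by contrast well read at 271.7, 263.1 and 270.0 RPM in high glucose and 291.6, 298 and 289.2 in control. Its fall (-0.13 ± 0.022, adjusted p = 0.000281) was lost with plain read totals (adjusted p = 0.622).

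All 3 Slits fell, where 25.5% of all genes were called lower, and the Robo receptors split. Slit2, a secreted repellent of many axon types, had 328.8, 324.3 and 329.8 RPM in high glucose against 358.8, 372.1 and 362 in control. This difference was small beside those of other members (-0.15 ± 0.021, adjusted p = 3.6e-05), and with plain read totals it did not pass (adjusted p = 0.123). Slit3, also made by fibroblasts and muscle, fell 1.47-fold, to 178.4, 177.7 and 187.6 RPM in high glucose against 271.2, 264.6 and 263 in control (-0.555 ± 0.026, adjusted p = 8.16e-10). Slit1 had 2, 2 and 2 reads in high glucose and 6, 8 and 11 in control, which passed (-1.89 ± 0.493, adjusted p = 0.00571). The high-glucose level of Slit1 was 0.222 of the control level per scaled read (exact 95% interval for counting error 0.0745 to 0.554).

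Robo2 (ENSRNOG00000029598), a Slit receptor that sensory axons use when they branch, had 35.6, 36.2 and 35.5 RPM in high glucose, against 100.8, 104.9 and 102.8 in control. Robo2 fell 2.88-fold (-1.52 ± 0.032, adjusted p = 2.96e-13), and each high-glucose sample was below every control sample by a wide margin. Robo1, the closest relative of Robo2, rose 1.38-fold instead, to 40.2, 37.3 and 39.9 RPM in high glucose against 28.0, 29.0 and 28.2 in control (0.46 ± 0.043, adjusted p = 1e-06). Together they summed to 74.9 ± 1.22 RPM in high glucose and 131.3 ± 2.58 in control. The share of Robo2 in that sum was 47.8% ± 1.26 in high glucose and 78.4% ± 0.12 in control, a share within each sample that no scaling of libraries can move. Robo3 was counted at 3 reads in high glucose and 6 in control and did not pass.

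**Figure D3:**
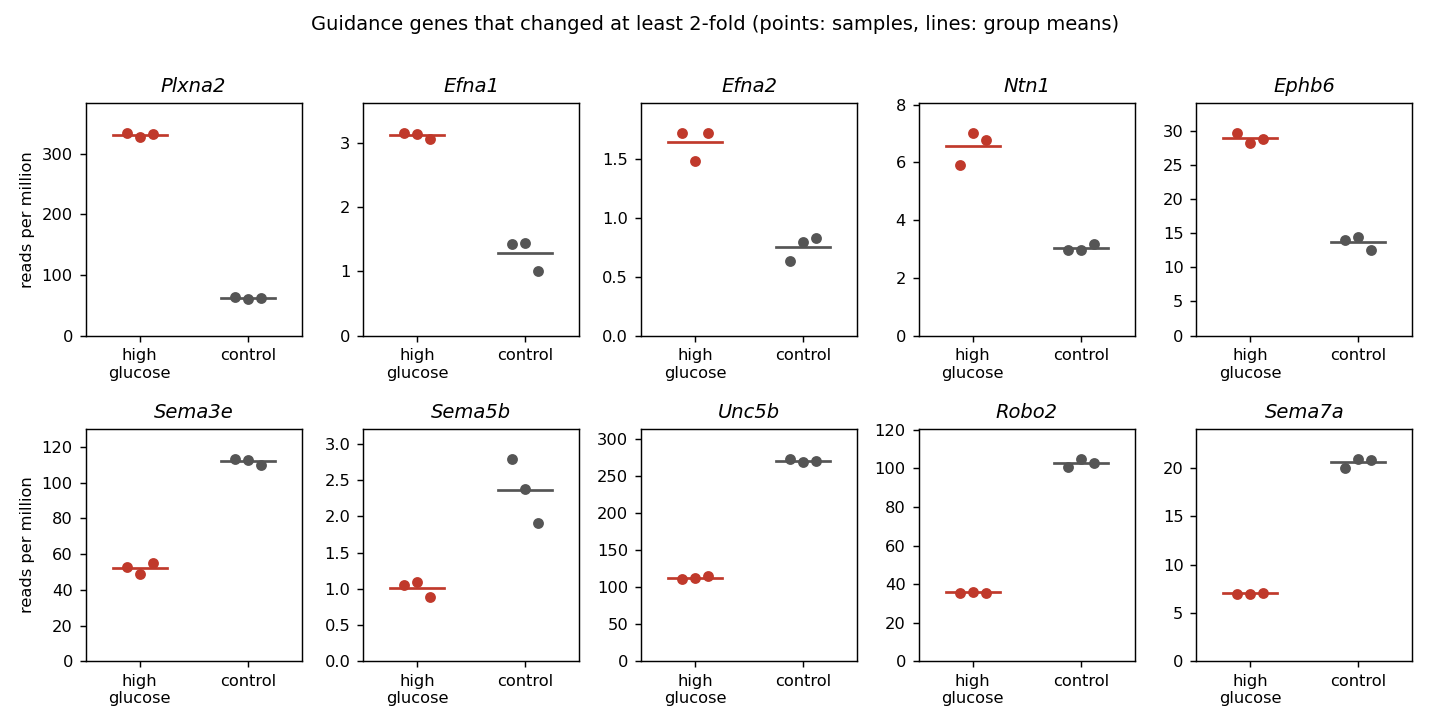
RPM (vertical axis, starting at 0) of the 10 guidance genes that passed the test with at least a 2-fold change and averaged at least 0 on the log2 scale, with each high-glucose sample (red, left) and control sample (grey, right) as a point and the group mean as a line. In each of the 10 genes the 3 samples of one group lie apart from the 3 of the other.

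Every A ephrin of the table rose, while the B ephrins Efnb1 and Efnb2 fell. Over all genes 24.9% were called higher and 25.5% lower. The sequences at the start sites of the A ephrin genes are shown after their values, since this is the largest of the families whose members all moved one way. Efna1 (ENSRNOG00000020573), which was found as a gene induced by tumour necrosis factor in endothelium, had 3.15, 3.14 and 3.06 RPM in high glucose against 1.42, 1.44 and 0.998 in control. It rose 2.46-fold (1.30 ± 0.188, adjusted p = 6.13e-05). Efna2 had 1.72, 1.48 and 1.72 RPM in high glucose against 0.630, 0.793 and 0.829 in control (1.13 ± 0.226, adjusted p = 0.000886). For Efna3 the counts were 14, 14 and 18 reads in high glucose and 4, 6 and 8 in control. Per scaled read these are 2.36 times as many (exact 95% interval for counting error 1.34 to 4.33), and in the fit the adjusted p was 0.0176. Without the third high-glucose sample or the first control sample the adjusted p of Efna3 was 0.0581 and 0.0541. Efna4 rose 1.48-fold (0.57 ± 0.111, adjusted p = 0.000759). Efna5, the cue that maps retinal axons and the most read of the family, had 8.41, 7.58 and 6.99 RPM in high glucose and 5.85, 6.26 and 5.53 in control (0.38 ± 0.100, adjusted p = 0.00611). In no A ephrin did the groups overlap, and their summed level was 18.7 ± 1.22 RPM in high glucose and 12.03 ± 0.38 in control.

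The regions from 250 bases before to 50 bases after the start of the 5 A ephrin genes, from RefSeq on build GRCr8, are given 5′ to 3′ in the direction of the gene. Capitals mark the GC box GGGCGG on either strand, the core site of SP1-type factors. Efna1 (chr2:176986772-176987071), Efna3 (chr2:177035789-177036088) and Efna4 (chr2:177050664-177050963) follow each other on chromosome 2 with 0 protein-coding genes between neighbours, all on the minus strand, as are Efna2 (chr7:10177670-10177969) and Efna5 (chr9:110042138-110042437).
Efna1: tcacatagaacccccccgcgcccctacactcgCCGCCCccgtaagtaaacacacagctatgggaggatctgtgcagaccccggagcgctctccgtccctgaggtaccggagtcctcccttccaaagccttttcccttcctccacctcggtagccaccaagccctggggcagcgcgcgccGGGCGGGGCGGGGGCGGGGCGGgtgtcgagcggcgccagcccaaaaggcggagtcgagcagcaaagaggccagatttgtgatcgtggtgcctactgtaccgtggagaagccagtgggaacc
Efna2: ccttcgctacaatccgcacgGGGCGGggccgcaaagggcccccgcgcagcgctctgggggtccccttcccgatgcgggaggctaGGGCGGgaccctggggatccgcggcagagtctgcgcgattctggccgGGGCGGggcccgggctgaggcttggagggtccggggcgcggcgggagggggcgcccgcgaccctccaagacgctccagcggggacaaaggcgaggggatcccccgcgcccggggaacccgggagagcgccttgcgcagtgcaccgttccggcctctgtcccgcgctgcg
Efna3: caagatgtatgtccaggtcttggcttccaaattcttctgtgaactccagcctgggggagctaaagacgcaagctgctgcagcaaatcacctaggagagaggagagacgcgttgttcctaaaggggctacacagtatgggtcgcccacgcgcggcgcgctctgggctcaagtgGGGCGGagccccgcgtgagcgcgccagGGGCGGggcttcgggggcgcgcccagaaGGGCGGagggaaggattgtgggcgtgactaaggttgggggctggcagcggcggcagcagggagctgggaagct
Efna4: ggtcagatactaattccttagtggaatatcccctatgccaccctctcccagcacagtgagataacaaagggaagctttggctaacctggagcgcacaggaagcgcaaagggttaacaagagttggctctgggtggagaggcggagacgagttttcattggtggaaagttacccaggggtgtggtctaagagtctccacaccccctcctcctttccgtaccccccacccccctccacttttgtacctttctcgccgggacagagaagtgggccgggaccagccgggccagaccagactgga
Efna5: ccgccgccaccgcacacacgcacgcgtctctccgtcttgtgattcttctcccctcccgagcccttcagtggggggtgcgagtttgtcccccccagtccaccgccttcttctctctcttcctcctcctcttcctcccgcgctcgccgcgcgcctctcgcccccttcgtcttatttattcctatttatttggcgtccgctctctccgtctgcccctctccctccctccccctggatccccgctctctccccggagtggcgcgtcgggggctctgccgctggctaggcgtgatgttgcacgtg
The GC box occurred 5 times in the Efna1 window, where 4 of the 5 stand in a single run and some share letters, 3 times in those of Efna2 and Efna3, and 0 times in those of Efna4 and Efna5. Of all 33469 windows of this length in the table, 33.1% held it. The E-box CACGTG, which is part of the sites of glucose-sensing factors, was found once, at the end of the Efna5 window, and in 6.42% of all windows. TGGAAA, the opening letters of the site of the osmotic stress factor NFAT5, was found on either strand in the window of Efna4 alone (1 match) and in 22.7% of all windows. The letters TATAAA were in none of the 5 and in 14.2% of all windows. GC content ran from 56.3% for Efna4 to 76.7% for Efna2, where the median window of the table had 51.7%. None of these 4 motifs was therefore in all 5 windows, and a match is a run of letters, not a bound site. A window was at hand for 52 of the 67 genes.

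Among B ephrins, Efnb2 (ENSRNOG00000014648), the artery-side partner of EPHB4, had 151.5, 149.7 and 158.1 RPM in high glucose against 216.5, 212 and 203.9 in control. It fell 1.38-fold (-0.46 ± 0.029, adjusted p = 1.77e-08). Efnb1, which sets borders between cell groups in the skeleton and neural crest, fell by a like amount, to 60.6, 60.7 and 61.4 RPM in high glucose against 79.2, 81.9 and 79.8 in control (-0.40 ± 0.030). Efnb3 was counted at 18 reads in high glucose and 8 in control and did not pass (1.10 ± 0.593, adjusted p = 0.143). B ephrins together summed to 214.2 ± 4.88 RPM in high glucose and 291.2 ± 6.37 in control. The sums of the A and the B ephrins thus moved in opposite directions, while the estimate for the scarce Efnb3 had the sign of the A ephrins.

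Of the 7 EphA receptors 4 rose and 1 fell, or 71.4% called against 50.5% of all genes. Epha7 (ENSRNOG00000007030), the most read of them and a receptor of A ephrins, had 232.9, 230.4 and 236 RPM in high glucose against 141.7, 143.5 and 141.8 in control. The groups stood well apart, at a 1.64-fold rise (0.71 ± 0.022, adjusted p = 1.5e-11). Epha2, a receptor of Efna1 in epithelium and vessels, rose 1.71-fold (0.78 ± 0.035, adjusted p = 6.64e-10), with 59.5, 59.8 and 58.6 RPM in high glucose and 33.97, 34.4 and 35.5 in control. Epha1 rose 1.82-fold (0.865 ± 0.098, adjusted p = 6.35e-06). The gene of Epha1 overlaps that of Zyx, a focal adhesion protein, in the GRCr8 annotation, and since the strand of the counting was not given, reads of Epha1 and Zyx cannot be told apart there. Zyx itself was lower (-0.31 ± 0.034, adjusted p = 5.01e-06). Epha3 had overlapping groups, 41.3, 45.5 and 42.4 RPM in high glucose and 39.3, 34.7 and 41.4 in control. Its rise (0.165 ± 0.060, adjusted p = 0.0351) did not pass with a single variance prior (0.168), with a replicate block (0.052), or without the second (0.129) or the third high-glucose sample (0.0574) or the second control sample (0.17). Epha4, which binds ephrins of both classes, stood at 0.02 ± 0.032 and did not pass (adjusted p = 0.676), except with plain read totals (0.13, adjusted p = 0.00384). Epha5, found mostly in neurons, was counted at 1 read in high glucose and 15 in control, so that it is listed in the table through the control samples and could only come out lower. Without Epha5, 24 guidance genes were lower, 6 of them at least 2-fold. Epha10 was counted at 16 reads in high glucose and 13 in control and did not pass. EphA receptors summed to 401.1 ± 1.34 RPM in high glucose and 276.6 ± 3.15 in control, and the share of Epha7 in the sum was 58.1% ± 0.68 in high glucose and 51.5% ± 0.89 in control.

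EphB receptors changed less as a group, with a sum of 144.5 ± 1.19 RPM in high glucose and 130.2 ± 1.29 in control, but their makeup differed. Ephb6 (ENSRNOG00000014367), a member whose kinase domain is inactive, had 29.6, 28.3 and 28.9 RPM in high glucose against 14.0, 14.5 and 12.6 in control. It was 2.11-fold higher (1.08 ± 0.060, adjusted p = 5.22e-09) and clear of the control samples in every library. Ephb3 fell 1.38-fold (-0.47 ± 0.053, adjusted p = 6.55e-06). Ephb4, the vein-side receptor of Efnb2 and the most read of the class, had 76.5, 81.2 and 75.9 RPM in high glucose and 68.6, 67.7 and 71.2 in control (0.17 ± 0.035, adjusted p = 0.00107). Ephb2 did not pass (0.03 ± 0.071) and its sign turned after quantile normalization, and Ephb1 was counted at 19 reads in high glucose and 13 in control. The share of Ephb6 in the EphB sum was 20.0% ± 0.60 in high glucose and 10.5% ± 0.70 in control, and that of Ephb3 was 17.9% ± 1.04 in high glucose and 27.4% ± 1.31 in control.

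**Figure D4:**
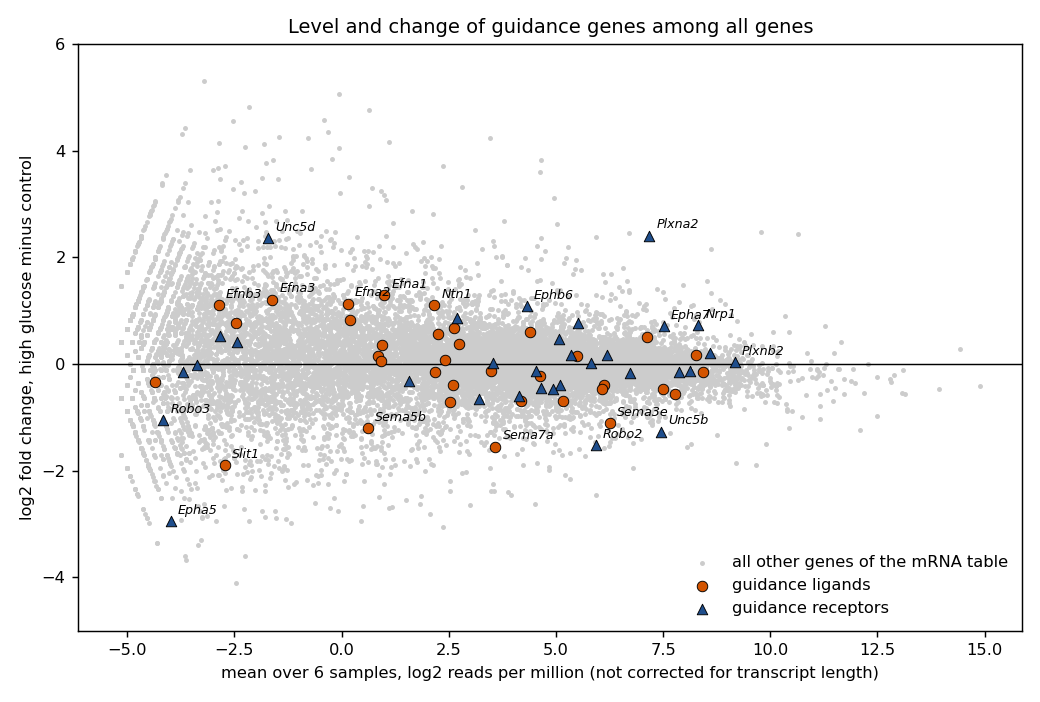
Log2 fold change (high glucose minus control, vertical axis) against the mean log2 RPM over the 6 samples (horizontal axis) for the 35 guidance ligands (orange circles), the 32 guidance receptors (blue triangles) and all other genes of the mRNA table (grey). Plxna2 stands at a log2 fold change of 2.41 among the well-read genes, and Robo2, Sema7a and Unc5b lie between -1.55 and -1.265.

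Known partners were set side by side to see whether a cue and its receptor changed alike. Sema3e and its receptor Plxnd1 were both lower in high glucose, by -1.10 and -0.16. Sema4d and Plxnb1 also fell together, by -0.71 and -0.60. Efna1 and Epha2 both rose, by 1.30 and 0.78. Ntn1 and its receptor Unc5b went opposite ways, at 1.11 and -1.265, as did Efnb2 and Ephb4, at -0.46 and 0.17. Sema6a fell by 0.69 while Plxna2, a receptor of Sema6a, rose by 2.41. For these last cues the answer depended on the receptor taken. Plxna4 fell with Sema6a (-0.385), Ephb3 fell with Efnb2 (-0.47), and Unc5d rose with Ntn1 (2.36, on few reads). Not every known partner is listed here. Slit2 and Slit3 fell with Robo2 (-0.15, -0.555 and -1.52) but not with Robo1 (0.46). No test was made of pairs, and whether a ligand and its receptor are in the same cells cannot be read from pooled RNA.

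Genes of the wider pathway were counted in 2 further lists. Of 35 measured cues and co-receptors outside these families, 10 were higher and 14 lower, with a median log2 fold change of -0.01. That is 68.6% called, against 50.5% of all genes. Of these 35, 30 averaged at least 0 on the log2 scale, and 61.7% of all such genes were called. With plain read totals the counts were 12 higher and 10 lower. Those with the smallest p that fell were the adhesion molecules Ncam1 (-0.87 ± 0.023), L1cam (-1.65 ± 0.050) and Chl1 (-0.74 ± 0.042), and Lingo1 (-0.81 ± 0.107), part of the receptor complex for myelin inhibitors. L1cam is also a partner of neuropilin 1 in the response to Sema3a. Those that rose were the sonic hedgehog co-receptors Cdon (0.65 ± 0.025) and Boc (0.85 ± 0.045), Flrt3 (0.80 ± 0.048), a ligand of UNC5 receptors, and the chemokine Cxcl12 (0.63 ± 0.048). Intracellular effectors that carry guidance signals to the cytoskeleton were lower more often than higher. Of 59, 34 fell and 13 rose (57.6% and 22%), against 25.5% and 24.9% of all genes. In either direction 79.7% were called, against 50.5% of all genes. Of the 59 effectors 53 averaged at least 0 on the log2 scale, and 61.7% of all such genes were called. The median log2 fold change of the effectors was -0.21, beside 0.01 over all genes. Their changes were mostly small. At least 2-fold changes were called in 3 of the 59 effectors, or 5.08%, against 8.25% of all genes and 5.44% of those averaging at least 0. The median absolute log2 fold change was 0.25 for the effectors and 0.28 for all genes. With plain read totals 27 effectors were lower and 16 higher. The 4 with the smallest p in each direction are named here. Lower were Cfl1, the actin-severing cofilin (-0.49 ± 0.016), and the kinase Rock2 (-0.50 ± 0.020). Also lower were Mical2, an actin-oxidizing enzyme of the family that acts below plexins (-0.49 ± 0.020), and Ablim1, an actin-binding protein (-1.18 ± 0.055). Higher were the transcription factor Nfatc4 (0.32 ± 0.030), Arhgef12, an exchange factor bound by B plexins (0.205 ± 0.021), Srgap3, of the Slit-Robo GTPase-activating proteins (0.71 ± 0.080), and the kinase Abl1 (0.42 ± 0.068).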

How the data were processed

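RNA was measured in 6 samples, 3 labelled DM and 3 labelled control, grouped by title. The authors deposited log2 values per gene and sample, voom-normalized per the file names. The submitters' processing notes name fastp 0.19.4, HISAT2 2.1.0, featureCounts 1.6.0 and Rnor_6.0. Annotation version and strand of counting were not given in the sources used here. The growth protocol includes a paraformaldehyde step, and whether it applied to the sequenced cells is not given. Whole reads were worked back from the deposited log2 values (100% within 0.01 of a whole number). No gene of the table was without reads in more than 3 of 6 samples. The authors' scaling factors were 1.03 to 1.05 in high glucose and 0.959 to 0.964 in control. Replicates differed beyond counting error (mean chi-square per gene of 2.91 to 4.62 within groups).

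Tests used limma 3.58.1 in R 4.3.3 on the deposited values, with group as the only term, a mean-variance trend, and Benjamini-Hochberg adjustment over all 16551 genes. The fit was also run on simulated reads in which few genes changed. That run had no difference in scaling between groups, so it does not bear on the choice of scaling. A level in RPM (reads per 1000000 scaled reads) is 2 to the power of the deposited value. Counting intervals cover counting error only. Per-sample values are given for members with a called change of 2-fold or more that average at least 0 on the log2 scale, and for the most read member of each family. Others were added after their values were seen. The members and lists were chosen with earlier results of these data known. Gene spans and start regions come from RefSeq (GRCr8), where 67 of 67 symbols matched. The span of 37 overlaps another annotated gene, and that of Epha1, Ephb4, Ntn5, Robo3, Sema5a, Sema6a and Unc5a a protein-coding one. Alternatives were quantile normalization, plain read totals, a pseudocount of 2 reads, a filter on low values, a single variance prior, voom weights, a replicate block and leaving out each sample. The lncRNA table was not used. Figures were drawn with matplotlib 3.10.9.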

Additional observations from a re-analysis of the deposited data

How the results depend on the processing

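Of the 67 genes, the calls of 67 were unchanged with a pseudocount of 2 reads and with voom precision weights, and after quantile normalization that of Sema3g was lost and those of Plxnb2 and Plxnc1 were gained. Scaling to plain read totals moved the median log2 fold change of all genes from 0.01 to 0.13, gave 5932 genes higher and 2847 lower against 4126 and 4228, and gave 26 guidance genes higher and 19 lower, with 13 receptors higher and 8 lower. It ended 6 falls (Neo1, Slit2, Plxna1, Plxnd1, Ntn4 and Sema4g). A single variance prior gave 21 guidance genes higher and 25 lower, and 8 effectors higher in place of 13. Without each sample in turn, 19 to 23 were higher and 24 to 26 lower. Same-numbered samples did not deviate together (correlations of -0.09 to 0.03), so the replicate numbers were not taken as pairs. With a replicate block 22 guidance genes were higher and 25 lower. The sign turned only in genes that did not pass. Without 1 sample, Dcc ranged from -0.776 to 0.223, Ntn5 from -1.175 to 0.523, Unc5a from -0.488 to 0.551, Epha10 from -0.021 to 1.306 and Ephb2 from -0.016 to 0.065. With plain totals Unc5a was at 0.098, and after quantile normalization Ephb2 was at -0.004 and Sema4f at -0.062. The cause of these turns was not tested, and the genes Dcc, Ntn5, Unc5a and Epha10 had at most 16 reads in either group.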

Other observations

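In the GRCr8 annotation, 6 pairs of guidance genes that follow each other along a chromosome have at most 4 protein-coding genes between them. Efna1 and Efna3, and Efna3 and Efna4, are direct neighbours and all rose (1.30, 1.21 and 0.57). The other pairs did not move together. Robo1 and Robo2 lie on chromosome 11 with 1 gene between them, at 0.46 and -1.52. Sema3c and Sema3e lie on chromosome 4 with 4 genes between them, at 0.17 and -1.10, and Sema3a and Sema3d are direct neighbours there, at -0.16 (not called) and 0.505. Sema3b and Sema3f lie on chromosome 8 with 3 genes between them, at -0.70 and 0.15.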
